A study of Homo sapiens with 12 samples.

Results

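The comparison described here set knockout clone 2 against knockout clone 1 of the same gene, ID2, in TC71 cells, an established human Ewing sarcoma line grown in DMEM with 10% FBS. Its members were the 6 libraries whose titles name clone 1 or clone 2 without rescue, 3 a side, of 12 libraries in the series. The other 6 were 3 of wild-type TC71 and 3 of a rescue line of clone 2, whose labels give the ID2 status as knockout and the rescue as yes. They are given beside the clones as levels only. The study profiled polyadenylated RNA to find genes regulated by ID2, and both clones carry the same ID2 label, so their comparison shows what differs between a pair of knockout lines that the labels describe alike. How the knockouts and the rescue were made is not given in the sources used here. Each clone is 1 cell line, so a difference between the clones cannot be told apart from the history of either line. The labels do not tie the 3 libraries of a clone to separate cultures. P-values thus rest on the spread among libraries alone, and that spread may be technical.

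ID proteins are small helix-loop-helix proteins without a DNA-binding region. They pair with E proteins such as TCF3, TCF4 and TCF12 and keep them from the E-box sequences in DNA, and in many tissues they hold progenitor cells back from differentiating. Ewing sarcoma is driven by a fusion of EWSR1 with an ETS factor, most often FLI1, which switches on some genes from GGAA repeats and holds down many mesenchymal genes. A clone grown from 1 cell carries that cell's chromosome copies and its pattern of silenced and active genes, and cancer lines are known to differ from cell to cell in both.

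Totals ran from 19420408 to 28331044 counts per clone library, and 17084 of 21569 genes were tested. Levels are CPM, counts per 1000000 reads counted, with TMM factors, as means ± SD over n = 3 libraries. Log2 fold changes are clone 2 minus clone 1 from the edgeR quasi-likelihood fit over all 12 libraries, and genes are written as called where the adjusted p, after Benjamini and Hochberg, was under 0.05. All 10 Ewing sarcoma markers listed had rows in the table. Their summed level was 2887 to 2982 CPM in clone 1 and 2754 to 2905 CPM in clone 2. The single markers were less alike, with 7 of 10 called higher in clone 2 and 2 lower (median log2 fold change 0.30). Over all genes tested, 30.3% were called higher and 31.9% lower. CCND1, the largest part of the clone 1 sum, was lower, at log2 -0.48, while CD99 was higher by 0.57. The other genes around CCND1, from 60 to 70 megabases of chromosome 11, had a median of -0.55, lower than its own value. The common biological coefficient of variation within groups was 2.95%, so that small differences passed the test.

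The targeted gene, ID2 (chr2:8678845-8684453 in hg38, plus strand), differed between the clones. Its RNA stood at 17.9, 17.4 and 18.9 CPM in the clone 1 libraries and at 47.8, 50.8 and 54.1 CPM in the clone 2 libraries. The lowest clone 2 library was thus above the highest clone 1 library, with a log2 fold change of 1.49 (SE 0.054, edgeR adjusted p = 2.2e-25). Wild-type libraries held 77.9 ± 0.657 CPM (SD, n = 3) and rescue libraries 41.5 ± 0.537 CPM. Gene counts do not show whether the RNA in either clone codes for a whole protein, so the count does not check the knockout itself.

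The other ID genes did not follow ID2. ID1, also a target of BMP signalling, stood at 62.3, 57.0 and 62.6 CPM in clone 1 and 31.4, 27.6 and 27.8 CPM in clone 2. It was lower in every clone 2 library, by a log2 difference of -1.06 (SE 0.053), while wild-type held 43.3 ± 0.402 CPM, between both clones. ID3 fell from 164 ± 6.78 CPM in clone 1 to 122 ± 4.08 CPM in clone 2 (-0.43 on the log2 scale). ID4 stood at 55.1 ± 2.81 and 54.0 ± 1.92 CPM and was not called (log2 -0.03, SE 0.046). Among the E proteins that ID proteins bind, TCF4 was lower in clone 2 by a log2 of -0.11, a call lost under upper quartile scaling. TCF3 (log2 -0.07, SE 0.033) and TCF12 (log2 0.04, SE 0.032) were not called. Of the 7 genes, ID2 alone was called higher in clone 2, and TCF12 was called higher too under upper quartile scaling. TCF3 was called lower in 6 of the alternatives.

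**Figure D1:**
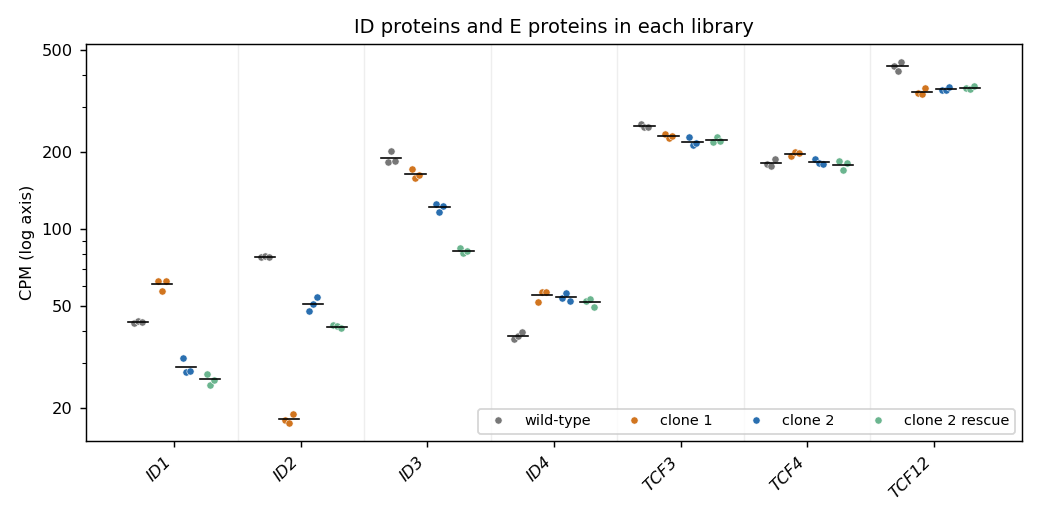
CPM of the ID and E protein genes on a log axis, 1 point per library and a bar at the mean of each group of 3. ID2 in clone 2 (50.9 CPM) lies between clone 1 (18.1 CPM) and wild-type (77.9 CPM), while ID1 is lower in clone 2 than in clone 1.

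Across the genome, 5174 genes were higher in clone 2 (30.3% of those tested) and 5454 were lower (31.9%), so that 62.2% of all genes tested were called in either direction. Most of these differences were small, and the median size of a log2 fold change over all genes tested was 0.31. At least 2-fold differences were called for 1245 genes higher (7.29%) and 1134 lower in clone 2 (6.64%), together 13.9% of genes. Under upper quartile scaling, which moved the median of all genes by 0.062 on the log2 scale, 6096 genes were higher and 4689 lower, so that which direction held more genes turned. The libraries of the clones did not overlap for 11203 genes, 65.6% of those tested. These shares are the background against which the gene groups below are read. Differences of at least 5 on the log2 scale were called for 78 genes higher and 72 lower.

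**Figure D2:**
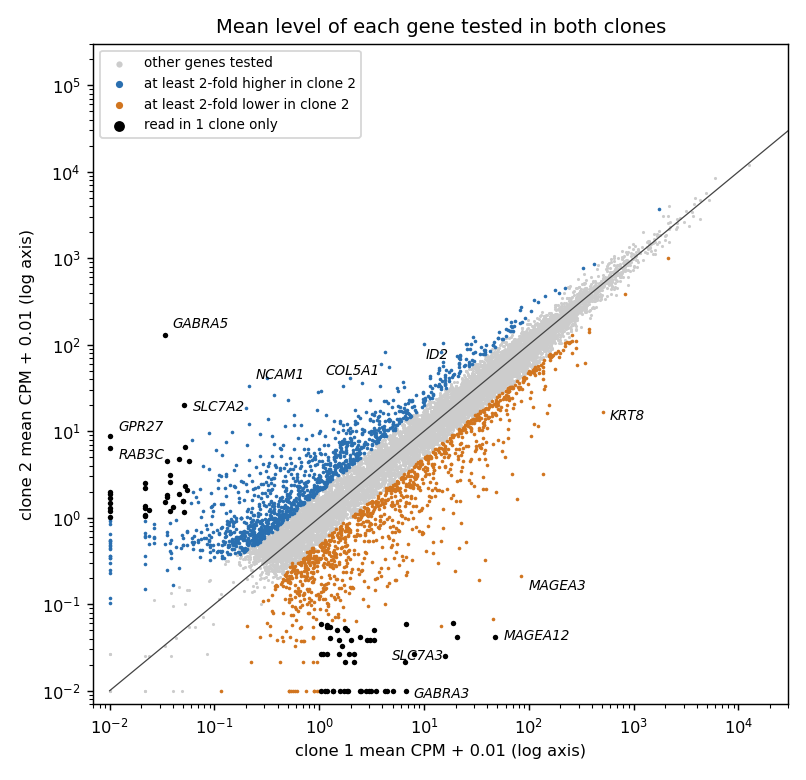
Mean CPM + 0.01 of each gene tested in clone 1 (horizontal) and clone 2 (vertical), both on log axes, with equal levels on the line. Most genes lie near the line, 1245 genes at least 2-fold higher in clone 2 and 1134 at least 2-fold lower lie off it, and 85 genes read in 1 clone only lie toward the left and lower edges.

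The widest gaps were between no or nearly no reads in 1 clone and a clear level in the other. With at most 3 reads summed over the 3 libraries of 1 clone and a mean of at least 1 CPM in the other, 50 genes were read in clone 1 only and 35 in clone 2 only. Since 3 reads over a group are also the floor that a count of 0 allows, a fold against a clone with no read is a lower bound, and folds against 1 to 3 reads are given with an exact interval. Both cover counting error only. Of the 50 genes read in clone 1 only, 11 were on chromosome X, 21 had at most 3 reads in wild-type cells and 10 reached 1 CPM there. Chromosome X held 515 of the 12514 genes tested at 1 CPM or more in the clones outside chromosomes 4, 11 and 13. The 50 include genes of chromosomes 4 and 11 and were chosen at 1 CPM in clone 1 alone, so these sets are unlike. Among the 11, GABRA3, MAGEA2B, CSAG1, MAGEA12 and PNMA5 are neighbours in a single stretch described below. In the rescue line made from clone 2, 41 of the 50 had at most 3 reads and none reached 1 CPM. Of the 35 genes read in clone 2 only, 1 was on chromosome X and 9 reached 1 CPM in wild-type. In the rescue line 27 of the 35 reached 1 CPM and none was at or under 3 reads.

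Cancer-testis antigen genes, which are normally active in germ cells and silenced elsewhere, had the lowest median of the lists with at least 10 members tested. Of 57 genes listed, 18 had values and were tested and the others were not analysed here. Of the 18 15 were lower in clone 2 and 1, PNMA3, was higher, against 31.9% lower and 30.3% higher over all genes. The median log2 fold change of the list was -2.996, against 0.0025 over all genes tested. Its strongest members sit within a stretch of chromosome X that holds MAGEA and CSAG genes. MAGEA3, MAGEA6, MAGEA12 and CSAG1 were also among the 15 named genes with the lowest log2 fold changes overall. Promoters of 4 genes of this stretch are printed here because the genes were lower together and some are copies of each other or share a start region. They are 300 bases long, from 250 before the start of transcription to 50 after it, from RefSeq on GRCh38.p14, 5′ to 3′ on the gene's own strand, with CG pairs in capitals.

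MAGEA3, chrX:152698544-152698843, plus strand: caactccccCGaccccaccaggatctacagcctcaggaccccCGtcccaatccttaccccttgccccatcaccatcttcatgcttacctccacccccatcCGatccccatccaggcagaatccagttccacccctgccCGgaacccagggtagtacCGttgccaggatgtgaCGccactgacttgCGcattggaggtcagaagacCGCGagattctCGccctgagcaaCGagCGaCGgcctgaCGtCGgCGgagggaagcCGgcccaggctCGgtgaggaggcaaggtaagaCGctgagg
MAGEA12, chrX:152733507-152733806, plus strand: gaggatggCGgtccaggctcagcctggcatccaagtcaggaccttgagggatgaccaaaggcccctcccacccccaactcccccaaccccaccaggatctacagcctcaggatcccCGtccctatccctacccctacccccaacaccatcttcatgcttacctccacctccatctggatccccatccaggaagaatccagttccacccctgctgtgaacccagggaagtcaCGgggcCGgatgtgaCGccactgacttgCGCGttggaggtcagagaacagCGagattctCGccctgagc
CSAG1, chrX:152733672-152733971, minus strand: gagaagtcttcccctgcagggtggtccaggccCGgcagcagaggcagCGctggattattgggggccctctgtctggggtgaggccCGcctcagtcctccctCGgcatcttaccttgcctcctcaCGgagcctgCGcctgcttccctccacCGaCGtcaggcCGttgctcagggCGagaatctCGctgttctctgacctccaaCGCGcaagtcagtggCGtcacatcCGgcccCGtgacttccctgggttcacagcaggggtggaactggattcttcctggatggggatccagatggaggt
PNMA5, chrX:152994067-152994366, minus strand: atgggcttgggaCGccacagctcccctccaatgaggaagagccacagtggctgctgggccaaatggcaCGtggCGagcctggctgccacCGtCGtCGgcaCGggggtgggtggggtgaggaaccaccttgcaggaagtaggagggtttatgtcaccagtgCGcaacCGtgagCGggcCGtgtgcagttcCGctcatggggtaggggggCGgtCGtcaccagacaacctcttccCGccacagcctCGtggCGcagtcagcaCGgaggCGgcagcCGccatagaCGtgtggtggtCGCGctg

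The promoter of MAGEA3 is identical at all 300 bases to that of MAGEA6, chrX:152769640-152769939 on the minus strand, which is therefore not printed again. Reads of such near-identical copies may be shared between both genes, so their separate values are uncertain. The MAGEA12 promoter, taken at the first of its listed starts, and the CSAG1 promoter point away from each other and overlap, so that parts of them are the same DNA read on opposite strands. The printed promoters hold 19 CG pairs (MAGEA3), 9 (MAGEA12), 16 (CSAG1) and 23 (PNMA5). The median over the 27305 promoters of the table is 14, and 95.8% of them hold at least 1 CG, a pair that reads the same on both strands. Over the 10898 promoters of protein-coding genes tested here the median is 26, more than in any of the printed promoters. The E-box CANNTG, where N is any base and which is its own reverse complement, occurs 2 times in the PNMA5 window, 1 time in each of the MAGEA12 and CSAG1 windows and not in the MAGEA3 window. It occurs in 68.9% of all promoters of the table and in 60.2% of those of the genes tested. A count of letters in a window says nothing of whether a factor binds there.

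MAGEA12 stood at 47.3, 48.2 and 45.6 CPM in the clone 1 libraries, against 2 reads over the 3 clone 2 libraries, a ratio of 1648-fold (95% interval 456 to 13614). CSAG1, its divergent neighbour, stood at 15.8, 16.2 and 15.6 CPM in clone 1 and had 1 read in clone 2. MAGEA3 went from 84.8 ± 0.256 CPM in clone 1 to 0.204 ± 0.0426 CPM in clone 2 and MAGEA6 from 45.5 ± 1.51 to 0.0579 ± 0.0722 CPM. Every clone 1 library was far above every clone 2 library for all of them. PNMA5, a paraneoplastic antigen gene further along, stood at 18.4, 19.4 and 18.4 CPM in clone 1 and 3 reads in clone 2. Wild-type cells held little of these RNAs, with 0.502 CPM of MAGEA12, 1.68 of MAGEA3 and 0.0115 of PNMA5. Wild-type thus lay far below clone 1, and for MAGEA12 and MAGEA3 above clone 2. Rescue libraries were as low as clone 2, with 0.0258 CPM of MAGEA12 and 0.165 of MAGEA3.

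The difference was uneven along this stretch. Within 500 kilobases on either side of MAGEA12, a window chosen after its values were seen, 13 genes were tested and 8 were lower in clone 2. GABRA3, a subunit of the GABA-A chloride channel at an end of the window, had 6.35, 6.58 and 7.12 CPM in clone 1 and no read in clone 2, at least 156-fold lower. MAGEA2B, from 2.82 CPM to 2 reads, and MAGEA1 (log2 -3.47) were lower as well. Between these genes lie CETN2, a centriole protein gene, and NSDHL, a cholesterol synthesis enzyme gene, which were higher in clone 2 by log2 0.75 and 0.31. ZNF185 and PNMA6A were not called, and PNMA3 was higher, from 23.2 to 36.9 CPM. Other listed cancer-testis genes that were lower in clone 2 included FATE1, from 7.73 to 0.315 CPM, and SYCP1, a protein of paired meiotic chromosomes, from 11.97 to 2.09 CPM. PRAME, whose product represses retinoic acid signalling, was lower, at log2 -1.14 in clone 2, and here clone 1 (64.9 CPM) was closer to wild-type (76.5 CPM). These 3 were chosen after their values were seen.

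Genes of many other kinds were also read in clone 1 and not or hardly in clone 2. SLC7A3, a carrier of cationic amino acids on chromosome X, stood at 19.9, 22.0 and 20.4 CPM in clone 1 and had 2 reads in clone 2. The wild-type level was 5.86 ± 0.889 CPM, with clone 1 above it and clone 2 below, and no rescue library had a read. TACR3, the receptor of neurokinin B, stood at 3.999, 4.91 and 4.28 CPM in clone 1, close to the 4.53 ± 0.397 CPM of wild-type, and had no read in clone 2 or the rescue line, at least 104-fold lower. MCTP2 (at least 98.0-fold) and TRIM6 (at least 79.6-fold) likewise had no read in clone 2, from clone 1 levels of 4.19 and 3.45 CPM. H2AJ, a variant histone gene, went from 8.20, 7.86 and 7.74 CPM in clone 1 to 1 read in clone 2, with 3.29 CPM in wild-type. Among the 15 lowest by the naming rule, which asks for a mean of 1 CPM over the 6 clone libraries and leaves out clone, antisense, pseudogene and LINC names, were also TINAGL1, CGB5, PHYHIP and PKP3, each with no read in clone 2 and between 2.46 and 2.95 CPM in clone 1.

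In the other direction GABRA5, another GABA-A receptor subunit gene (chr15:26866363-26949207 in hg38, plus strand), led. It had 2 reads over the clone 1 libraries and 132, 127 and 130.1 CPM in the clone 2 libraries, 4708-fold (95% interval 1303 to 38878). Wild-type libraries held 3.10, 2.27 and 2.38 CPM and rescue libraries 126, 125 and 129 CPM. Clone 2 and its rescue line were thus far above wild-type, and clone 1 below it. GABRG3, a neighbouring subunit gene on chromosome 15, showed the same direction at a lower level, with no read in clone 1 and 1.30 CPM in clone 2. Of the 6 GABA-A subunit genes tested, 4 were higher and 1, GABRA3, lower in clone 2. Subunits of this receptor assemble into chloride channels that inhibit neurons.

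NCAM1, the neural cell adhesion molecule CD56 (chr11:112961247-113278436, plus strand), had 14 reads in all of clone 1, or 0.2999, 0.142 and 0.165 CPM, and 34.6, 33.7 and 32.2 CPM in clone 2, a log2 fold change of 7.40 (SE 0.16). Wild-type held 11.1 ± 1.57 CPM, between both clones. The other 2 genes tested within 500 kilobases of it were ZW10, lower, at log2 -0.35, and TMPRSS5, not called. GPR27, an orphan receptor gene, had no read in clone 1 and 8.83, 8.10 and 9.35 CPM in clone 2, at least 212-fold higher. RAB3C, a vesicle GTPase gene, had no read in clone 1 and 6.11, 5.87 and 7.13 CPM in clone 2, at least 153-fold higher. In both cases wild-type was low, with 0.528 and 0.106 CPM. SLC7A2, like SLC7A3 a carrier of cationic amino acids, had 3 reads in clone 1 and 20.4, 20.8 and 18.5 CPM in clone 2. Each clone thus had at most 3 reads of 1 of these carriers, while wild-type cells held both, with 8.10 CPM of SLC7A2. DPYSL5, a growth cone protein gene, went from 0.310 ± 0.0797 to 41.7 ± 2.49 CPM and IGFBP5, which binds insulin-like growth factors, from 0.191 ± 0.0632 to 18.3 ± 1.79 CPM. For DPYSL5 and IGFBP5 wild-type levels (24.4 and 15.4 CPM) were far above clone 1. Also among the 15 highest by the same rule were STXBP6, ZSWIM5, WNK2, TMTC1, SLC4A4, VCAN, TSPAN7 and TBXAS1, each at 2.22 CPM or more in clone 2 and 0.0797 CPM or less in clone 1. SEZ6L, a neuronal membrane protein gene, went from 2 reads in clone 1 to 2.57 CPM in clone 2, but was 0.154 CPM in the rescue line, below wild-type (0.329 CPM). CXCL12, a chemokine, and LUM, a matrix proteoglycan that was read in clone 1 only, were chosen after their values were seen. CXCL12 had 0 reads in clone 1 and 1.96 CPM in clone 2, and LUM 2.46 CPM in clone 1 and 2 reads in clone 2.

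The end of the HOXA cluster formed another stretch read mainly in clone 2. HOX genes encode homeobox factors that set position along the body axis. HOXA10 stood at 0.09997, 0.213 and 0.659 CPM in clone 1 and 3.77, 4.20 and 4.72 CPM in clone 2, without overlap, at a log2 of 3.64 (SE 0.25). HOXA11 (0.0256 and 1.84 CPM in clones 1 and 2) and HOXA13 (0 and 0.347 CPM) were higher with it, and wild-type held 4.68 CPM of HOXA10 and 1.11 of HOXA11. Over the whole list of HOX genes, 14 of 29 tested members were higher and 5 lower, with a median log2 fold change of 0.24. HOXC13 (log2 1.11) and HOXB5 (0.86) were higher, and HOXB4 (-0.63) and HOXB3 (-0.60) were lower in clone 2.

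**Figure D3:**
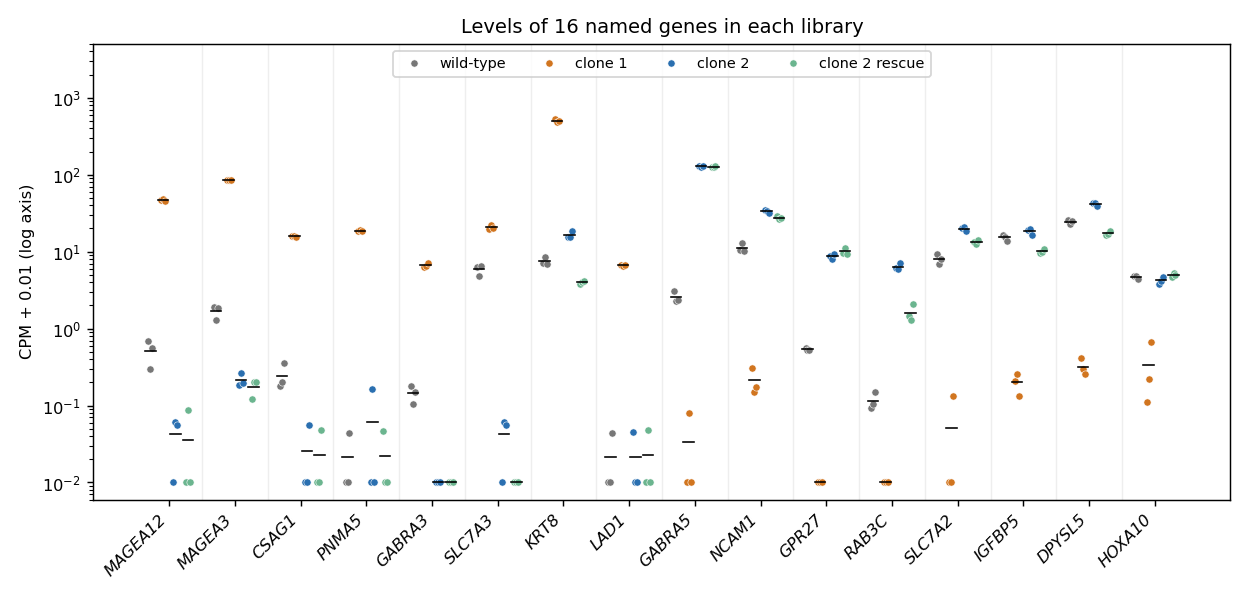
CPM + 0.01 of 16 named genes on a log axis, 1 point per library and a bar at the mean of each group of 3, where points at 0.01 had no read. The first 8 genes from MAGEA12 to LAD1 are high in clone 1, as MAGEA3 at 84.8 CPM, and the last 8 from GABRA5 to HOXA10 are high in clone 2, as GABRA5 at 129.7 CPM.

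Simple epithelial genes were mostly lower in clone 2. Of the list, 17 of 25 tested members were lower and 5 higher, 15 and 3 of them at least 2-fold, with a median log2 fold change of -1.15. KRT8, which pairs with KRT18 in the filaments of simple epithelia (chr12:52897187-52949954, minus strand), stood at 527, 486 and 501 CPM in clone 1 and 15.6, 15.6 and 18.4 CPM in clone 2, a log2 of -4.94 (SE 0.050). KRT18, its partner and neighbour, was 378 CPM in clone 1 and 141 CPM in clone 2. Wild-type libraries held 7.59 ± 0.905 CPM of KRT8 and 108 of KRT18, so that clone 1 was the high line. LAD1, an anchoring filament protein gene, went from 6.60 ± 0.157 CPM to 1 read, and PKP3, a desmosome plaque gene, was at least 68.3-fold lower. SPINT2, an inhibitor of membrane serine proteases, was lower, at log2 -3.60. The exceptions were DSP (log2 4.97), the desmosome protein desmoplakin, and CLDN1 (1.70), a tight junction protein, which stood at 83.6 CPM in clone 1 and 272 CPM in clone 2 against 292 CPM in wild-type. Among epithelial markers, KRT7, KRT19, CDH1 and CLDN7 were not analysed here. The summed level of the 30 that were was 1457 to 1532 CPM in clone 1, 673 to 705 in clone 2 and 721 to 741 in wild-type. Of the clone 1 and clone 2 sums KRT8 made 504 and 16.5 CPM and KRT18 378 and 141 CPM, most of the gap between them.

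Fibroblast markers and matrix genes moved the same way. Of 15 fibroblast and mesenchymal markers tested, 12 were lower and 2 higher, with a median of -1.05. The summed level of the 16 in the table was 903 to 953 CPM in clone 1, 323 to 357 in clone 2 and 380.3 to 391 in wild-type. This sum includes COL3A1, given below and also a collagen, and ENG, also an endothelial marker, so these lists are not separate. Of the collagen chains, 17 of 29 tested members were lower and 6 higher (median -0.75). COL3A1, a fibrillar collagen, stood at 295, 282 and 279.8 CPM in clone 1 and 60.5, 60.4 and 53.9 CPM in clone 2. COL6A1, which forms beaded microfibrils, went from 62.6 ± 2.31 to 10.5 ± 1.21 CPM and COL9A3, a cartilage collagen, from 56.9 ± 1.98 to 7.55 ± 0.722 CPM. In each case clone 2 was near or below wild-type (112, 9.04 and 7.17 CPM). COL5A1, which starts fibril assembly, went the other way, at 3.70, 4.02 and 3.62 CPM in clone 1 and 35.3, 35.0 and 31.0 CPM in clone 2, above the 13.4 CPM of wild-type. Among other matrix genes, 27 of 47 tested members were lower and 13 higher, with a median of -0.32. BGN (log2 -4.17) and MMP2 (-4.77), a proteoglycan and a gelatinase, were lower. VCAN, a large proteoglycan, was 159-fold (95% interval 28.2 to 6333) higher and MMP1, a collagenase, was higher by log2 3.86. At least 2-fold differences among the other matrix genes were 12 lower and 10 higher.

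Genes of caveolae, small pits of the cell membrane, moved unevenly. Of the list of caveolins, cavins and annexins, 12 of 18 tested members were lower and 4 higher (median -0.31, or -0.18 without genes of chromosomes 4, 11 and 13). CAVIN1 went from 62.4 ± 1.74 to 15.9 ± 0.625 CPM, and CAVIN3 and EHD2, which coat and steady caveolae, were lower, at log2 -3.36 and -2.87. CAV1 and CAV2, the caveolins, were higher by 0.42 and 0.43, and so were EHD3, a relative of EHD2, by 0.65 and ANXA7 by 0.0876. ANXA3, a calcium-dependent membrane-binding protein gene, stood at 6.65, 7.08 and 6.63 CPM in clone 1, had 3 reads in clone 2 and none in wild-type.

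Genes that EWSR1-FLI1 is known to hold down were mostly lower in clone 2, with 17 of 24 tested lower and 6 higher (median -0.71, or -0.44 without genes of chromosomes 4, 11 and 13). This list shares collagen, TGF-beta target and smooth muscle genes with other lists used here. CCN1 and CCN2, matrix-associated growth regulators, were lower, at log2 -2.36 and -1.64, at 2.18 and 0.912 CPM in clone 2. ACTA2, smooth muscle actin, was higher, at 2.10, 2.52 and 1.89 CPM in clone 1 and 12.3, 10.9 and 13.4 CPM in clone 2. CALD1, an actin regulator, went from 0.0833 ± 0.144 to 1.93 ± 0.502 CPM. Of genes that the fusion is known to activate, 15 of 29 were higher and 9 lower, with a median of 0.17. LOXHD1 was 15.4, 15.5 and 14.7 CPM in clone 1 and 108, 110.1 and 96.8 CPM in clone 2, without overlap (log2 2.79, SE 0.056). BCL11B, a zinc finger factor, went from 15.7 ± 0.784 to 42.6 ± 1.05 CPM, the wild-type level being 42.3 ± 2.16 CPM. FLI1 itself, whose reads include those of the fusion, was higher by log2 0.48, at 62.6 and 87.1 CPM. The medians of both lists had opposite signs, and each list held members called either way. CCND1, cyclin D1, and IGF1 were lower, at log2 -0.48 and -0.60. Among surface antigens studied in Ewing sarcoma 11 of 26 were higher and 11 lower. CD99 was higher by log2 0.57 and B4GALNT1, which makes GM2 and GD2 gangliosides, by 0.84, and MCAM (-1.89) and ROR1 (-1.11) were lower.

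Pathways that control ID genes or share their partners were mixed, with more members lower. Of the BMP and TGF-beta ligands, receptors and SMADs, 16 of 29 tested members were lower and 6 higher (median -0.21). BMP2 ran against the list, at 1.60, 2.03 and 1.73 CPM in clone 1 and 9.91, 8.91 and 9.81 CPM in clone 2. BMP5 (log2 -3.70), the receptor BMPR1B (-1.27) and the inhibitor SMAD7 (-0.92) were lower. ENG, a co-receptor also used as an endothelial marker, went from 105 ± 1.79 to 28.2 ± 1.54 CPM, against 15.002 ± 1.34 CPM in wild-type. Of TGF-beta target genes, 11 of 17 tested members were lower and 4 higher (median -0.62, or -0.21 without chromosomes 4, 11 and 13), with TAGLN at log2 -1.05 and SMAD7 and CCN2 as above. In the Notch pathway, in which a cut receptor moves to the nucleus and switches on HES and HEY repressors, 16 of 25 tested members were lower and 6 higher (median -0.33). HEY1 stood at 38.7, 38.4 and 42.1 CPM in clone 1 and 10.9, 10.9 and 10.7 CPM in clone 2, and HEYL and HES4 were lower, at log2 -1.998 and -1.39. HES7 and DLK1, a non-canonical ligand, were higher, each by log2 1.02. Of 14 tissue bHLH factors that pair with E proteins, 6 were lower and 2 higher. Of the 42 genes listed, 17 had values. BHLHE22 stood at 11.4 CPM in clone 1 and 43.2 CPM in clone 2, NHLH2 had no read in clone 1 and 1.01 CPM in clone 2, and ATOH8 fell from 10.7 to 3.79 CPM. TWIST1 was lower, at log2 -0.27, a call lost without clone 1 replicate 3 and without clone 2 replicate 1.

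Neuronal genes did not move in a single direction. Of filament, tubulin and vesicle genes 17 of 36 tested members were higher and 14 lower (median 0.02). NEFM, a neurofilament protein, stood at 3.20, 4.12 and 4.32 CPM in clone 1 and 58.3, 60.2 and 62.3 CPM in clone 2, and INA, another, was 1.68 and 10.3 CPM. PRPH, a peripheral neurofilament, and SYT4, a vesicle protein, were lower, at log2 -0.75 and -1.92. Of voltage-gated channels, 12 of 29 tested members were higher and 9 lower, or 41.4% and 31.0%, against 30.3% and 31.9% over all genes tested. The sodium channel SCN8A was higher by log2 3.99 and the potassium channel KCNH2 by 1.83, and the calcium channels CACNA1H and CACNA1A were lower, at -1.09 and -0.93. Of axon guidance genes 28 of 53 tested members were lower and 15 higher (median -0.28). The netrin receptor UNC5A was higher by log2 2.86 and its relative UNC5B lower, at -1.26, from 126 to 52.2 CPM.

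Receptor tyrosine kinases were more often lower in clone 2, with 16 of 30 lower and 5 higher (median -0.39, or -0.35 with members that lack reads in a clone set at their bound or, at the floor in both, left out). AXL, the receptor of GAS6, stood at 9.85, 11.5 and 11.4 CPM in clone 1 and 0.908, 0.759 and 0.741 CPM in clone 2, against a wild-type mean of 0.999 CPM. PDGFRB, a receptor of platelet-derived growth factor, was lower, at log2 -1.27. FLT4, a receptor of VEGF-C, was higher, from 2.32 ± 0.333 to 15.1 ± 1.46 CPM. RET had 1 read in clone 1 and 1.03 CPM in clone 2, against 3.74 CPM in wild-type. Of FGF and ERK feedback genes, 12 of 27 tested members were higher and 8 lower. SPRY4 (log2 2.49), FOSL1 (2.48) and EGR1 (1.65) were higher, and SPRY1 (-1.55), of the same family as SPRY4, was lower.

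Genes of cell division were lower in clone 2 by small steps. Of G2 and M phase genes, 44 of 60 tested members were lower and 6 higher, none by 2-fold, and the median was -0.25, or -0.22 when each gene was set against the other genes of its 10-megabase bin. CENPE, a kinetochore motor, stood at 202, 207 and 203 CPM in clone 1 and 106, 105 and 104 CPM in clone 2. KIF23, KIF20A and PLK4 were lower, at log2 -0.79, -0.66 and -0.75. CENPE and PLK4 lie on chromosome 4 in bins whose other genes had medians of -0.51 and -0.39, and KIF23 lies in a bin of chromosome 15 with -0.46. S phase genes were split, with 17 of 45 higher and 16 lower (median 0.02). These shares, 37.8% and 35.6%, were near the 30.3% and 31.9% over all genes tested. RRM2, a ribonucleotide reductase subunit, went from 246 ± 6.98 to 473 ± 5.62 CPM, while RRM1, its partner, was lower, at log2 -0.66 and TK1, thymidine kinase, at -0.99. RRM1 lies in a bin of chromosome 11 whose other genes had a median of -0.97, lower than its own value. For the bins of RRM2 and TK1 this median was 0.33 and -0.03. CDK6, a kinase that opens the way to S phase, stood at 0.2999, 0.356 and 0.288 CPM in clone 1 and 14.3, 14.9 and 12.5 CPM in clone 2 (log2 5.43, SE 0.18), against 2.54 ± 0.505 CPM in wild-type. No library of the clones overlapped. CCND3 and RB1 were higher by log2 0.81 and 0.62, and CDKN1A, the p21 inhibitor, by 0.54. RB1 lies in a bin of chromosome 13 whose other genes had a median of 0.37. For the bins of CCND3 and CDKN1A this median was 0.06 and 0.08. CDK4 was 172 and 171 CPM and was not called.

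Among metabolic groups, 15 of 25 cholesterol synthesis genes were higher and 4 lower (median 0.20). HMGCS1, which catalyses an early step of the pathway, stood at 87.4, 86.1 and 85.0 CPM in clone 1 and 142, 145 and 132 CPM in clone 2, without overlap (log2 0.70). SQLE, squalene epoxidase, was higher by log2 0.64. For both genes wild-type lay above both clones, at 241 CPM of HMGCS1 and 863 CPM of SQLE. DHCR7, the last enzyme, was lower, at -0.80 and lies on chromosome 11. Of ATF4 and amino acid stress genes, 18 of 30 tested members were higher and 7 lower (median 0.19). DDIT3 and ATF3 were higher by log2 0.74 and 0.95 and SLC7A8, a carrier of neutral amino acids, by 1.35. Glycolysis enzymes were split, with 9 of 20 higher and 7 lower. HK1, a hexokinase, was higher, from 21.9 ± 0.446 to 76.7 ± 0.745 CPM, and HK2, its relative, was lower, at log2 -0.47. PKM was higher by 0.56 and LDHA lower, at -0.37. LDHA lies in a bin of chromosome 11 whose other genes had a median of -0.43, and PKM in a bin of chromosome 15 with -0.08. Of MYC target genes 13 of 25 were higher and 7 lower. ODC1, which starts polyamine synthesis, was higher by log2 0.89.

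Cytosolic ribosomal protein genes were lower more often than higher, with 45 of 78 lower and 11 higher, at a median of -0.14, which upper quartile scaling moved to -0.08. RPS3 stood at 2154, 2072 and 2099 CPM in clone 1 and 1019, 995 and 994 CPM in clone 2 and lies on chromosome 11, as do RPL27A (log2 -0.86) and RPLP2 (-0.83). RPL5 was higher, at 1745, 1711 and 1759 CPM in clone 1 and 3702, 3645 and 3755 CPM in clone 2. The other genes of its bin, at 90 to 100 megabases of chromosome 1, had a median of 0.48, below its own 1.09, and wild-type held 1724 CPM. RPS3's bin, from 70 to 80 megabases, had -0.82. RPS7, on chromosome 2, went against its bin. It was lower, at log2 -0.61, while the other genes of the first 10 megabases had a median of 0.32. RPL32 (log2 0.50) lies in a bin of chromosome 3 with a median of 0.56. Of mitochondrially encoded genes, 13 of 15 were higher, none lower, with a median of 0.22 and MT-RNR2, the large ribosomal RNA, the highest at log2 0.86. Polyadenylated RNA of replication-dependent histone genes was higher for 10 of 16 and lower for none (median 0.52). H2AC6 stood at 60.4, 54.9 and 66.2 CPM in clone 1 and 119, 114 and 148 CPM in clone 2. These genes are near copies of each other, so their separate values are uncertain.

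Interferon-stimulated genes, which viral defence signals induce, were mostly lower in clone 2: 29 of 45 were lower and 7 higher, with a median of -0.51. BST2, which tethers virus particles, stood at 5.10, 6.68 and 5.56 CPM in clone 1 and 0.140, 0.506 and 0.185 CPM in clone 2. IRF7 and OASL were lower, at log2 -2.90 and -2.59, and in wild-type they stood at 1.96 and 0.657 CPM, against 1.23 and 1.03 CPM in clone 2. HERC5, a ligase for the interferon-induced modifier ISG15, was an exception, at 0.563 ± 0.160 CPM in clone 1 and 11.9 ± 0.684 CPM in clone 2, the wild-type mean being 8.84 CPM. Of antigen presentation genes, 10 of 21 tested members were lower and 6 higher. HLA-E, PSMB8 and NLRC5, a regulator of this set, were lower, at log2 -0.61, -1.21 and -1.001. HLA-C (0.57) and TAP1 (0.66), a peptide pump, were higher. HLA genes are near copies, so reads may be shared between them.

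Regulators of gene silencing went both ways. Of DNA methylation and polycomb genes, 16 of 33 tested members were higher and 11 lower (median 0.05). DNMT3B, an enzyme that sets new DNA methylation, stood at 29.5, 27.1 and 27.2 CPM in clone 1 and 9.77, 13.1 and 8.61 CPM in clone 2, lower, at -1.42 on the log2 scale without overlap. EZH2, the enzyme of polycomb complex 2, went from 57.3 ± 0.869 to 107 ± 1.63 CPM, with wild-type at 109 ± 2.07 CPM, and EED, its partner on chromosome 11, was lower, at log2 -0.74. MTF2, a further subunit of this complex on chromosome 1, was higher by 1.34. TET1 and TET2, which oxidise methylated cytosine, were lower, at -0.60 and -0.51. TET2 lies in a bin of chromosome 4 whose other genes had a median of -0.55, and TET1 in a bin of chromosome 10 with -0.07. For the bins of EED and MTF2 this median was -0.76 and 0.48. Imprinted genes, active from 1 parental copy, gave 10 higher and 8 lower of 28. These shares, 35.7% and 28.6%, were near the 30.3% and 31.9% over all genes tested. H19, a noncoding RNA of chromosome 11, went from 7.498, 6.22 and 6.75 CPM in clone 1 to 0.244, 0.253 and 0.185 CPM in clone 2, with 0.231 CPM in wild-type. DLK1 and MEG3, expressed from opposite parental copies of the same locus, differed in opposite directions, DLK1 from 8.35 to 16.8 CPM and MEG3 from 5.64 to 2.56 CPM. Both stood above wild-type (0.474 and 1.03 CPM) in both clones. Of clustered protocadherins, adhesion proteins of which single cells express varied sets, 17 of 38 were lower and 3 higher, and 11 lower when genes needed 1 CPM in 3 libraries. PCDHB15 (log2 -3.43) and PCDHA13 (-3.36) were the lowest named.

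**Figure D4:**
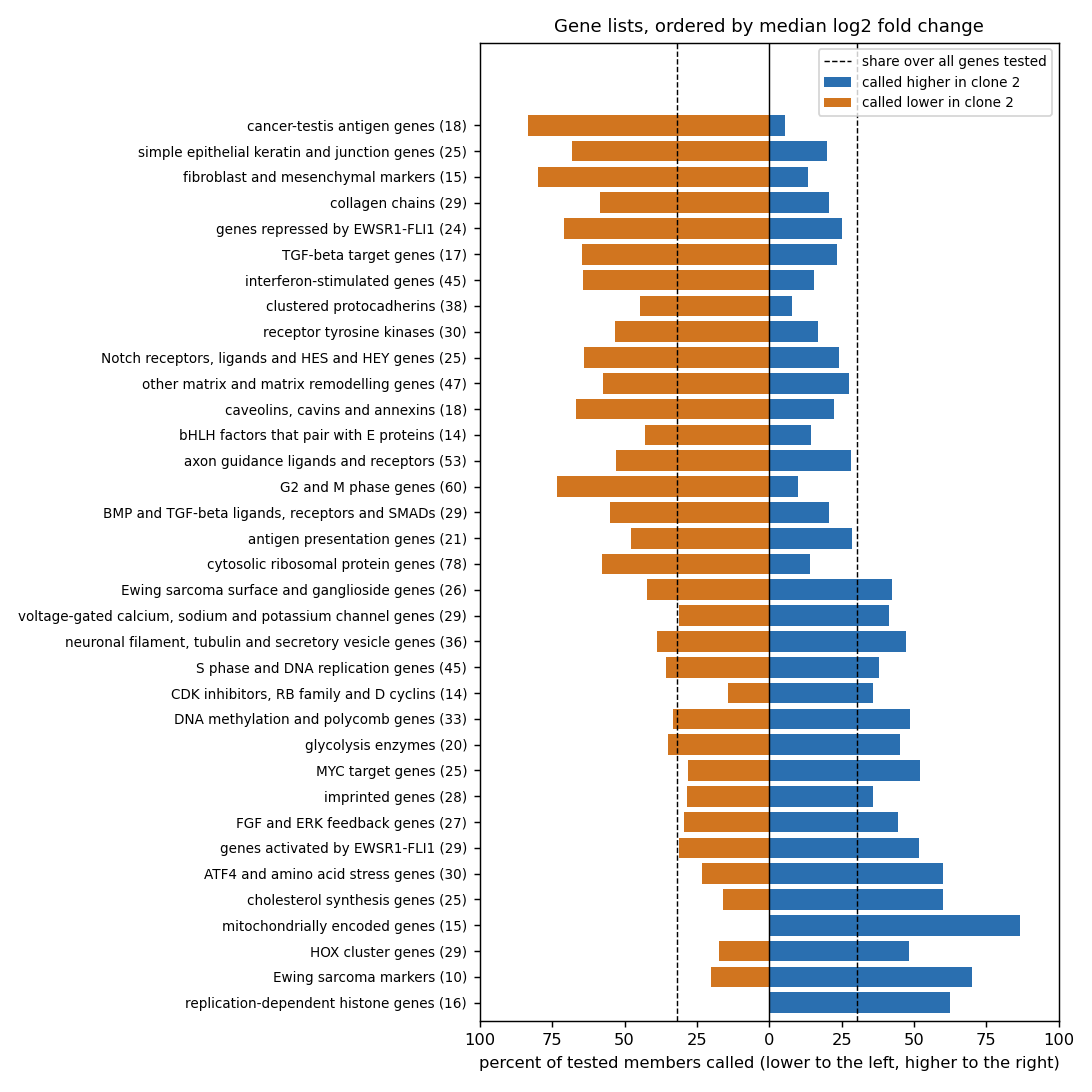
Percent of tested members called higher (right) or lower (left) in clone 2 for each list with at least 10 tested members, number tested in brackets, ordered by median log2 fold change from the lowest at the top. Dashed lines mark the shares over all genes tested, 31.9% lower and 30.3% higher, and cancer-testis genes, with 15 of 18 lower, are at the top.

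Markers of other cell types moved as well. Blood markers summed to 161 to 175 CPM in clone 1 and 50.4 to 55.7 CPM in clone 2, of which LCP1, an actin bundler that tumour lines also express, made 139 and 30.7 CPM. Of the 24 blood markers 11 had values, and CD3D, CD3E and HBB were among those not analysed here. Endothelial markers summed to 143 to 151 CPM in clone 1 and 72.0 to 80.1 in clone 2, of which ENG made 105 and 28.2 CPM. Values were available for 8 of 15, and PECAM1, VWF and KDR were not analysed here. Of the 7 blood markers tested 4 were lower and 3 higher, and of the 5 endothelial markers 2 were lower and 3 higher. The clone 1 and clone 2 libraries did not overlap in the blood, endothelial, fibroblast or epithelial sums, and none of the markers with values was at 0 in both clones. Their part in the lower levels of matrix, epithelial and interferon genes in clone 2 was not tested.

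Differences also ran along chromosomes. Over tested genes of at least 1 CPM in the clone libraries, the median log2 fold change was -0.56 on chromosome 11 (720 genes), 0.42 on chromosome 13 (256 genes) and -0.18 on chromosome 4 (521 genes). No other chromosome passed 0.15 in size, and under upper quartile scaling chromosome 4, at -0.114, did not, while chromosomes 5 (0.17), 6 (0.18) and 22 (0.16) did. On chromosome 11, 599 genes were lower in clone 2 and 44 higher, and on chromosome 13, 181 were higher and 24 lower. All 14 bins of 10 megabases with at least 10 genes on chromosome 11 were below 0, from -0.20 to -0.96, the lowest being the first 10 megabases. All 8 of chromosome 13 were above 0. The 3 most abundant protein-coding genes called on the side of the median were RPS3, HSPA8 (log2 -0.22) and EIF4G2 (-0.40) on chromosome 11, and IPO5 (0.23), HMGB1 (0.36) and TPT1 (0.52) on chromosome 13.

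Chromosome 4 was not uniform. Below 80 megabases its median was 0.11 over 230 genes. From 80 to 170 megabases it was -0.47 over 247 genes, of which 182 were lower and 22 higher. Above 170 megabases it was -0.30 over 44 genes, of which 25 were lower and 10 higher. There the bin from 170 to 180 megabases had 0.05 and the bin from 180 to 190 megabases had -0.46. These limits were set after the bins were seen. RPS3A (log2 -0.53) and H2AZ1 (-0.34) lie in the stretch from 80 to 170 megabases. NSD2 (-0.08) lies outside it, and its call was lost under upper quartile scaling, under the 1 CPM filter and without clone 2 replicate 3. Over the genome, 290 bins held at least 10 genes, and 25 had a median of -0.3 or lower and 19 of 0.3 or higher. Of these, 29 were on chromosomes 4, 11 and 13. Runs elsewhere were chosen after their values were seen. On chromosome 1 the bins from 90 to 110 megabases had medians of 0.62 and 0.66, next to -0.31 from 80 to 90. On chromosome 5 the bins from 160 megabases to the end had 0.46, 0.50 and 0.64, and on chromosome 15 the bin from 60 to 70 megabases had -0.46.

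Set beside wild-type, with the same 3 wild-type libraries in both comparisons, the clone farther from it was not the same in each stretch. In the first 10 megabases of chromosome 11 the median was 0.25 for clone 1 minus wild-type and -0.70 for clone 2 minus wild-type. From 70 to 80 megabases of chromosome 11 it was 0.05 and -0.81, and from 110 to 120 megabases of chromosome 4 it was 0.04 and -0.50. At 90 to 100 megabases of chromosome 1 it was -0.08 for clone 1 and 0.88 for clone 2. In these stretches clone 2 was the line farther from wild-type, and in the first of them clone 1 lay above wild-type. On chromosome 13, from 30 to 40 megabases, it was -0.37 for clone 1 and 0.12 for clone 2, and from 170 to 180 megabases of chromosome 5 it was -0.41 and 0.03. There clone 1 was the line farther from wild-type. RNA levels do not measure DNA copies, which were not measured here.

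**Figure D5:**
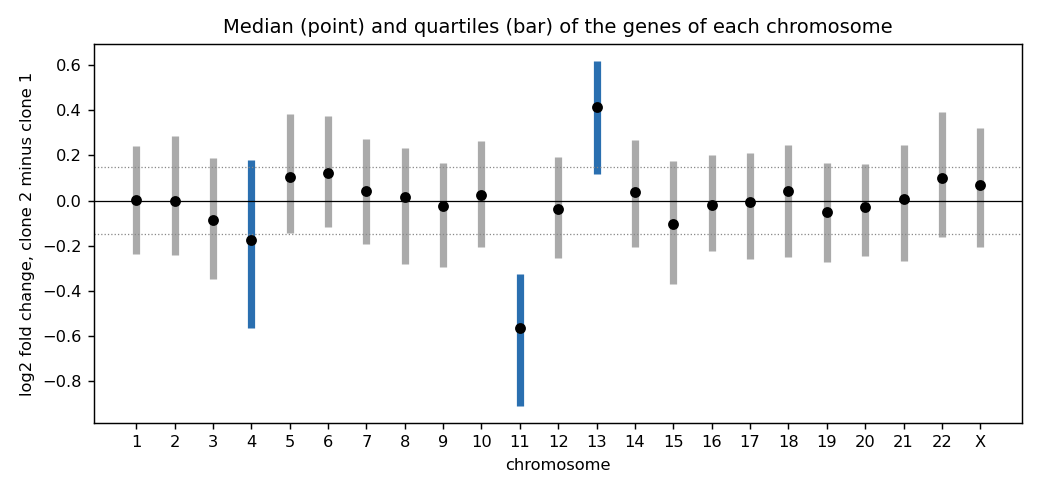
Median (point) and quartiles (bar) of the log2 fold change, clone 2 minus clone 1, over the tested genes of at least 1 CPM on each chromosome, with dotted lines at 0.15 and -0.15. Chromosomes 11 (-0.56), 13 (0.42) and 4 (-0.18) lie outside the lines.

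The 5 list medians named next kept their sign when genes of chromosomes 4, 11 and 13 were left out, an alternative added after the data were seen. Without them 4748 genes were higher and 4512 lower, and 1129 and 894 at least 2-fold. The median of the collagen list was then -0.56, that of interferon-stimulated genes -0.44, that of G2 and M phase genes -0.23, that of ribosomal protein genes -0.13 and that of cholesterol synthesis genes 0.27. Other medians shrank by more than 1.5 times, that of TGF-beta target genes to -0.21, that of genes repressed by EWSR1-FLI1 to -0.44 and that of caveolins, cavins and annexins to -0.18. The cancer-testis genes tested lie on other chromosomes, so their counts did not change. When each gene was set against the median of the other genes of its own bin, the list medians were -0.79 for collagens, -1.30 for epithelial genes, -0.36 for interferon-stimulated genes and 0.22 for cholesterol synthesis genes.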

How the data were processed

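RNA of wild-type TC71, ID2 knockout clones 1 and 2 and the rescue line of clone 2 was sequenced in 3 libraries each from polyadenylated RNA, with a stranded Illumina TruSeq kit per the labels' protocols. FastQC, STAR and hg38 are named, per the submitters' processing notes. Which counting tool, strand setting and annotation were used is not given in the sources used here. The authors deposited a table of whole-number counts per gene for the 12 libraries, which was the only file used. The replicates of a clone differed by more than counting noise (chi-square per degree of freedom 1.80 to 2.81).

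Symbols came from the table of gene names supplied with the reference (18647 of 21569 identifiers), and positions from GENCODE release 29 (20825). From the deposited counts, edgeR 4.0.16 (R 4.3.3) fitted a quasi-likelihood model with 1 mean per group to all 12 libraries, after a filter at a minimum count of 10 and TMM scaling. The contrast was clone 2 minus clone 1 with Benjamini-Hochberg adjustment over 17084 genes. The fit was run on simulated data with 50 genes changed at each of 1.25, 1.5, 2 and 4-fold. It recovered 78% at 1.25-fold and 98% at 2-fold, and 7 of 186 calls were false. Far fewer genes were changed there than were called here, and no chromosome was shifted as a whole. The simulation therefore does not test the scaling or the error rate under such differences. CPM use TMM library sizes. DESeq2 1.42.0 and limma 3.58.1 gave alternatives.

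Named genes were the 7 ID and E protein genes, the 15 highest and 15 lowest log2 fold changes among called genes with a mean of 1 CPM or more over the 6 clone libraries, no overlap and no clone, antisense, pseudogene or LINC name, up to 4 called members of each of 39 lists in each direction at the same mean, up to 10 genes read in each clone only, and 3 genes for each chromosome whose median passed 0.15. Exceptions are marked in the text. The gene lists and the comparison were chosen with earlier results of these data known. A few genes are not reported here.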

Additional observations from a re-analysis of the deposited data

How the results depend on the processing

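The comparison was refitted with DESeq2 size factors, upper quartile scaling, TMM factors without chromosomes 11, 13 and 18, no filter on counts, a filter of 1 CPM in 3 libraries, DESeq2's Wald test, limma-voom, the 6 clone libraries alone, a replicate block, and each clone library left out in turn. Genes higher in clone 2 numbered 4722 to 6096 and genes lower 4689 to 5872. Genes at least 2-fold higher numbered 895 to 1496 and at least 2-fold lower 860 to 1461, and of the 2379 calls of that size 1738 (1 CPM filter) to 2374 (DESeq2 size factors) were shared. The log2 fold change of ID2 ran from 1.44 to 1.55. Leaving out a library gave 33 to 51 genes read in clone 2 only and 47 to 68 in clone 1 only.

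Same-numbered libraries of the clones barely deviated together (r = 0.0322, 0.0693 and 0.0751 across genes), below the 0.1 set for pairing, although each was highest with its own number. The replicate block gave 5334 genes higher and 5492 lower with the 6 clone libraries, and 5206 and 5483 with all 12.

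Chromosome medians kept their signs in these fits, and in some of them moved by more than the spread between libraries. With DESeq2 size factors, DESeq2's Wald test, limma-voom and the replicate block they stayed within it. Upper quartile scaling gave -0.11 for chromosome 4, -0.50 for chromosome 11 and 0.48 for chromosome 13. On chromosome 11, at -0.565 in the main fit, TMM factors without chromosomes 11, 13 and 18 gave -0.572 and no filter -0.579. The 1 CPM filter gave -0.550 there and the 6 clone libraries alone -0.558. On chromosome 13, no filter gave 0.40 and the 1 CPM filter 0.43. Leaving out a library gave -0.20 to -0.17 for chromosome 4, -0.59 to -0.57 for chromosome 11 and 0.38 to 0.42 for chromosome 13. Most of these fits stayed within the spread on chromosomes 4 and 13, and most moved beyond it on chromosome 11. The causes were not tested.

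Of 280 named genes other than ID2, 268 stayed on the same side of the threshold in every alternative that gave a value, and none changed sign while called. The 12 others were TCF12, TCF4, TCF3, TWIST1, NOTCH4, EBP, OCLN, ANXA7, CACNB4, KIT, PCDHB14 and NSD2.

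With 3 libraries a clone, differences in genes of few reads were limited by counting. Such folds are bounds or carry wide intervals. With 1 line per clone, and both labelled as ID2 knockouts, a difference between them cannot be told apart from the descent of either line.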
